A study of Mus musculus with 4 samples.

Results

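The mRNAs of the AMPA and kainate receptor subunits were examined for co-precipitation with CPEB2 from mouse brain lysate. The 4 AMPA receptor subunits (Gria1 to Gria4) and the 5 kainate receptor subunits (Grik1 to Grik5) were taken from the array annotation by their gene symbols, which gave 9 of 24185 gene symbols and 15 of 55681 distinct probes. There were 6 subunits, Gria2, Gria3, Gria4, Grik1, Grik2 and Grik3, with a pair of probes each, and Gria1, Grik4 and Grik5 had a single probe each. RNA was isolated from protein G beads that carried either an IgG against CPEB2 or a control IgG, after 3 h in corticohippocampal lysate of 8-week-old male C57BL/6 mice. The labels name no mutation and no drug. Lysate was divided between the antibodies, the procedure was run as 2 experiments, and each experiment gave 1 CPEB2 IgG array and 1 control IgG array. One description of the CPEB2 IgG samples mentions CPEB3 IgG, but CPEB2 is given in their titles, in the protocol and for the series. The lysate pooled all cells of the tissue, so the cell type that an mRNA came from cannot be told. The divided lysate gave both antibodies of an experiment the same cells. An antibody that also bound a related CPEB protein cannot be told apart from one that did not.

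CPEB2 is a member of the cytoplasmic polyadenylation element binding (CPEB) family, RNA-binding proteins that attach to U-rich elements in the 3′ untranslated region of mRNAs and regulate their polyadenylation and translation. AMPA receptors are tetramers of GluA1 to GluA4, the products of Gria1 to Gria4, and carry most fast excitatory transmission in cortex and hippocampus. Kainate receptors are assembled from GluK1 to GluK5, the products of Grik1 to Grik5. GluK1 to GluK3 can form channels on their own, whereas GluK4 and GluK5 need one of the other three.

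Between 68.4% and 74.1% of the gene probe spots of an array were well above background, and no spot was saturated. Each antibody occupied its own positions on the one slide, so array position and antibody cannot be told apart. Cpeb2 mRNA itself had raw signals of 2410 and 1877 on the CPEB2 IgG arrays and of 299 and 297 on the control IgG arrays. Gapdh, a glycolytic enzyme mRNA used as a non-target, was lower with CPEB2 IgG at all 7 of its probes, with log2 fold changes between -4.02 and -2.52. Markers of glutamatergic neurons (Slc17a7, Camk2a, Neurod6, Neurod2) and of GABAergic neurons (Gad1, Gad2, Slc32a1) were well above background on all 4 arrays, whereas Gabra6 and Cbln3, which mark cerebellar granule cells, did not pass the filter on dim probes.

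The probes were 60 bases long, and the first 30 bases of both probes are shown for the 6 subunits in which 1 transcript region could be set against another. Upstream and downstream refer to the direction of transcription on the mouse genome build mm9, which the array annotation uses. Capitals mark runs of 4 or more T, the letters with which the cytoplasmic polyadenylation element (TTTTAT or TTTTAAT in DNA letters) begins.
Gria2 upstream probe A_65_P00930: tttaatttgggggatattccttggggaaaa
Gria2 downstream probe A_55_P2031327: tttcatactttacctaatggcaatctggag
Gria3 upstream probe A_52_P179309: aagttggtggaaatctggattccaaaggct
Gria3 downstream probe A_52_P68221: gcgcatatttgctctcgtctttagaaaaga
Gria4 upstream probe A_52_P349182: ttgaccactatggacgtagagttaattaca
Gria4 downstream probe A_55_P1987725: cagcacccagcacagtgcctggcatattgt
Grik1 upstream probe A_66_P131466: ttccttatattagcaaaatgtacagacatt
Grik1 downstream probe A_51_P282609: gctcacatagatattacttgaggagtgaaa
Grik2 upstream probe A_55_P2039992: aaatacagagaatacccaagtctcctccat
Grik2 downstream probe A_55_P2039981: tagaaaatatacatcaaggggtcttaggat
Grik3 upstream probe A_55_P2158251: tcttgtctatggctttctgaagctgtgaag
Grik3 downstream probe A_66_P120555: attaTTTTccTTTTTaagacactgtgatat
Only the Grik3 downstream probe had such runs among these 12 stretches, and the first 30 bases of the single Grik5 probe also held one. That made 2 of the 15 subunit probes, against 15.2% of all probes. Over their full 60 bases, 0 of the 15 subunit probes held TTTTAT or TTTTAAT in the orientation shown, against 4.54% of all probes, and the Gria4 upstream probe held 1 on the opposite strand, against 6.50% of all probes. These windows are a small part of each mRNA and say nothing of elements elsewhere in it. The subunit probes had a median GC content of 40.0%, against 43.3% over all probes. Of the 15, only the Gria4 downstream probe shared a stretch of 20 bases with a probe of another gene, Slit1. The single Gria1 probe and the Gria4 downstream probe held a stop codon in all 3 forward frames, so that neither lies wholly within coding sequence, and whether the other probes lie in coding or untranslated exons was not given by the annotation.

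All 15 probes were well above background on at least 2 of the 4 arrays and were tested among 41138 probes, and 13 were so on all 4 arrays. With limma and the experiment as a block, 8 of the 15 had an adjusted p below 0.05 and a higher signal with CPEB2 IgG, against a background of 12.7% of all probes tested. None of the 15 was lower at an adjusted p below 0.05, against 14.8% of all probes tested. At an unadjusted p below 0.05 in limma again none was lower, against 9731 of the 41138 probes. The median log2 fold change was 1.10 over the 15 probes and -0.20 over all probes tested. Both CPEB2 IgG arrays lay above both control IgG arrays for 13 of the 15 probes, against 26.4% of all probes. With 2 arrays against 2, an exact two-sided permutation test of a single probe that ignores the pairing cannot go below p = 0.333. A permutation within the 2 experiments has fewer arrangements still, so the calls rest on the spread that limma shares across probes. The count fell from 8 to 4 without control IgG replicate 1 and likewise to 4 without control IgG replicate 2. It fell to 0 when no filter on dim probes was applied. The downstream probes of Gria2, Gria3, Grik1 and Grik3 were the 4 called both times a control array was left out.

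**Figure D1:**
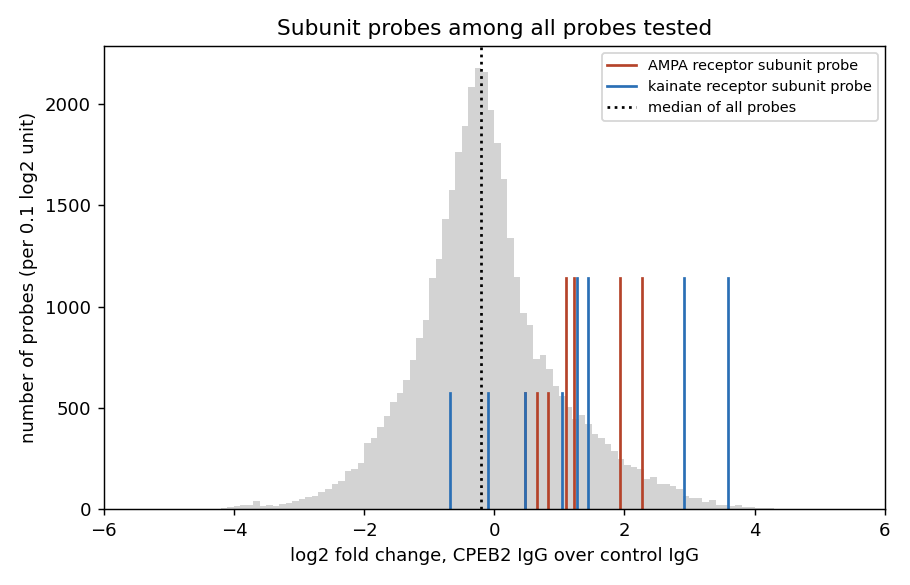
Histogram of the log2 fold change (CPEB2 IgG over control IgG) of all 41138 probes tested, in bins of 0.1, with a vertical line for each of the 15 subunit probes; long lines passed the limma threshold and short lines did not, and line height carries no other value. The 8 long lines lie between 1.10 and 3.59, to the right of the median of all probes at -0.20.

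Of the AMPA receptor subunits, Gria2, Gria3 and Gria4 each had at least 1 probe that was higher with CPEB2 IgG, and Gria1 did not pass the threshold. Gria2 encodes GluA2, the subunit whose edited form makes AMPA receptors nearly impermeable to calcium. Its downstream probe (NM_001083806, from base 6781 of that transcript, chr3:80488858-80488917, minus strand) had raw signals of 1248 and 1601 on the CPEB2 IgG arrays and of 364 and 402 on the control IgG arrays. The groups did not overlap, and the scaled log2 fold change was 1.86 in experiment 1 and 2.02 in experiment 2, a mean of 1.94 ± 0.11 (SD, n = 2, limma adjusted p = 0.00970). The upstream probe (NM_001039195, from base 3120, chr3:80495725-80495784) was dimmer, with 402 and 619 against 206 and 238. It was also higher with CPEB2 IgG, by a log2 fold change of 1.22 ± 0.25 (SD, n = 2, limma adjusted p = 0.0315). This second Gria2 call was lost when probes were centred within GC bins, where the log2 fold change was 0.75 and the adjusted p from limma 0.0792, and without CPEB2 IgG replicate 2 or either control array.

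Gria3 encodes GluA3, and its downstream probe was the AMPA receptor probe with the highest log2 fold change. That probe (NM_016886, from base 4512, chrX:39031099-39031158, plus strand) had raw signals of 5876 and 7341 on the CPEB2 IgG arrays and of 1514 and 1327 on the control IgG arrays. The scaled log2 fold change was 2.04 in experiment 1 and 2.49 in experiment 2, with a 95% interval from limma of 1.53 to 3.00. The upstream probe (from base 2503 of the same transcript, chrX:39007367-39007426) had 495 and 670 against 354 and 318. Its groups did not overlap either, but the log2 fold change of 0.83 ± 0.38 (SD, n = 2) had an adjusted p of 0.0952 from limma. It passed under 5 of 16 alternatives, with adjusted p-values between 0.0136 and 0.266 over all of them.

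Gria4 encodes GluA4, an AMPA receptor subunit prominent in interneurons. Its downstream probe (NM_001113180, from base 5384, chr9:4417896-4417955, minus strand) had 1504 and 1431 on the CPEB2 IgG arrays and 744 and 679 on the control IgG arrays. Both experiments gave a log2 fold change of 1.10, and the adjusted p was 0.0382 from limma. This was the called probe closest to the threshold, and the adjusted p was 0.0574 with the percentile taken over probes well above background on all 4 arrays and 0.0540 with spike-in scaling. The call was also lost without CPEB2 IgG replicate 2 (adjusted p = 0.0614) and without control IgG replicate 1 (0.118) or 2 (0.131). The upstream probe (NM_019691, from base 1566, chr9:4502385-4502444) had 193 and 303 against 184 and 178, with log2 fold changes of 0.15 and 0.79 in the 2 experiments (adjusted p = 0.309 from limma).

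Gria1 encodes GluA1, the subunit most studied for its insertion into synapses during potentiation. Its only probe (NM_001113325, from base 5604, chr11:57143613-57143672, plus strand) had 2264 and 2673 on the CPEB2 IgG arrays and 1811 and 1455 on the control IgG arrays. The CPEB2 IgG arrays lay above the control IgG arrays, with log2 fold changes of 0.41 and 0.90. The mean of 0.65 had a 95% interval from limma of -0.09 to 1.40 and an adjusted p of 0.161. The upper end of that interval is a fold change of 2.64.

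**Figure D2:**
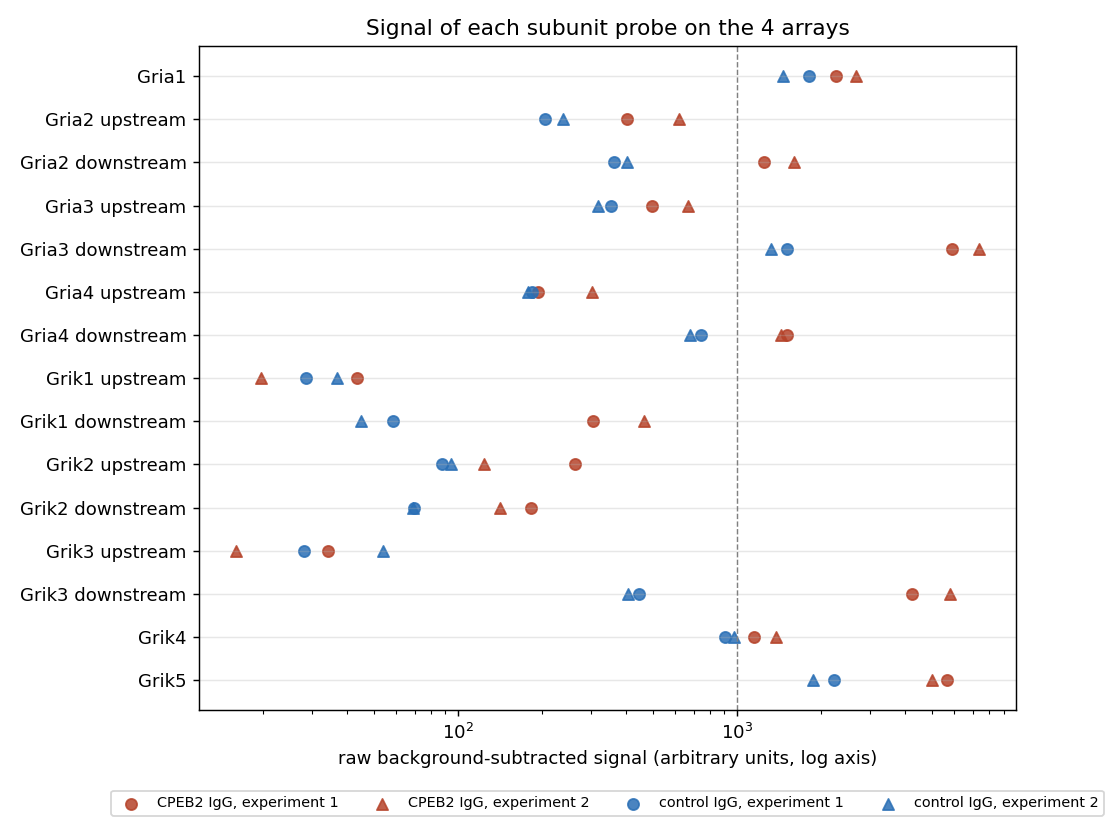
Raw background-subtracted signal of each subunit probe (rows) on a log axis in arbitrary units, with CPEB2 IgG arrays in red, control IgG arrays in blue, circles for experiment 1, triangles for experiment 2, and a dashed line at 1000. Red points lie to the right of blue points in every row but the Grik1 upstream and Grik3 upstream rows, where the 4 signals lie between 16.1 and 54.1; raw signals of different probes cannot be set against each other.

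The kainate receptor subunits included the 2 highest log2 fold changes of the 15 probes, 3.59 and 2.92, and 2 dim probes not well above background on every array. Grik3, which encodes the low-affinity subunit GluK3, had the highest value of all 15 probes. Its downstream probe (NM_001081097, from base 8741, chr4:125391317-125391376, plus strand) had raw signals of 4242 and 5767 on the CPEB2 IgG arrays and of 447 and 406 on the control IgG arrays. The log2 fold change was 3.33 in experiment 1 and 3.85 in experiment 2, a mean of 3.59 with a 95% interval from limma of 2.84 to 4.34 (adjusted p = 0.00679), or 7.16-fold to 20.2-fold. The upstream Grik3 probe (from base 2957 of the same transcript, chr4:125385533-125385592) was dim, with 34.3 and 16.1 against 28.2 and 54.1. Its groups overlapped, the 2 experiments had log2 fold changes of opposite sign (0.37 and -1.73), and it was not well above background on the second CPEB2 IgG array.

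Grik1 encodes GluK1 and likewise had a downstream probe that was higher with CPEB2 IgG and a dim upstream probe. Its downstream probe (NM_146072, from base 3511, chr16:87896231-87896290, minus strand) had 304 and 464 on the CPEB2 IgG arrays and 58.7 and 45.0 on the control IgG arrays, well above background on all 4 arrays. The log2 fold change was 2.46 in experiment 1 and 3.39 in experiment 2, with a mean of 2.92 ± 0.66 (SD, n = 2, limma adjusted p = 0.00712). It was 1.99 with normexp background correction, which shrinks the differences of dim probes, and still passed. The upstream probe (ENSMUST00000114137, from base 2688, chr16:87912812-87912871) had 43.7 and 19.7 against 28.7 and 37.0, overlapping groups, and was not well above background on the second CPEB2 IgG array.

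Grik5 encodes GluK5, the high-affinity partner of most kainate receptors in brain. Its only probe (NM_008168, from base 3705, chr7:25794943-25795002, minus strand) was bright, with 5655 and 5004 on the CPEB2 IgG arrays and 2227 and 1867 on the control IgG arrays. The experiments differed little, with log2 fold changes of 1.43 and 1.45, and the adjusted p was 0.0185 from limma. Without either control array the adjusted p rose to 0.0557 or 0.0765. Grik4 encodes GluK4, the other high-affinity subunit. Its only probe (NM_175481, from base 3353, chr9:42328570-42328629, minus strand) had 1148 and 1373 against 904 and 976. The log2 fold change of 0.47 had a 95% interval from limma of -0.23 to 1.17 (adjusted p = 0.262), and it reached 1.00 (adjusted p = 0.0470) with centring within bins of GC content.

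Grik2 encodes GluK2, a subunit of the principal kainate receptors of forebrain, and both of its probes were dim. The downstream probe (NM_010349, from base 4815, chr10:48819269-48819325, minus strand) had 183 and 142 on the CPEB2 IgG arrays and 69.5 and 69.3 on the control IgG arrays, with a log2 fold change of 1.27 ± 0.30 (SD, n = 2, limma adjusted p = 0.0296). The upstream probe (NM_001111268, from base 1258, chr10:49243534-49243593) had 263 and 124 against 87.6 and 94.7. Its log2 fold changes of 1.67 and 0.41 differed between experiments, and their mean of 1.04 had an adjusted p of 0.104 from limma. This probe passed under 6 of 16 alternatives, among them median centring (adjusted p = 0.0160) and the filter at all 4 arrays (adjusted p = 0.0377).

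**Figure D3:**
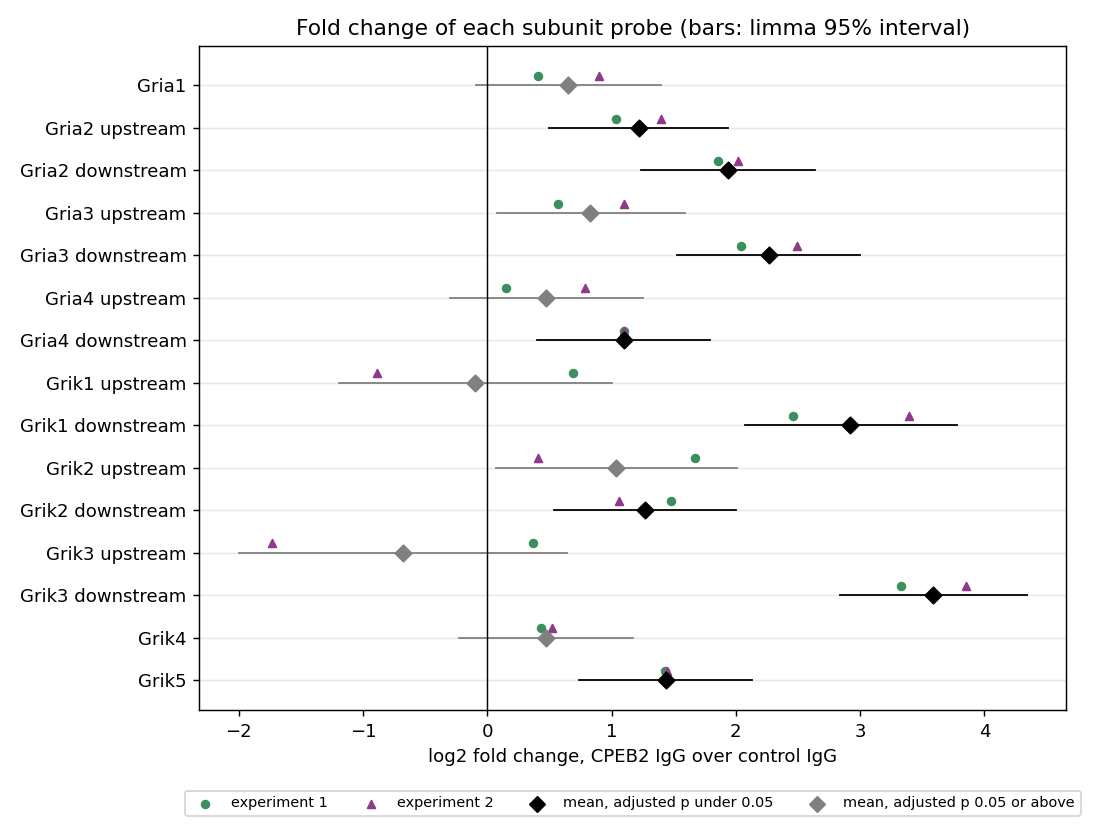
Log2 fold change of each subunit probe, CPEB2 IgG over control IgG, with the 2 experiments as small symbols, their mean as a diamond and the 95% interval from limma as a bar. The 8 black diamonds passed the threshold; the Grik1 and Grik3 upstream probes are the only rows in which the experiments lie on opposite sides of 0.

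Where on the mRNA a probe lay went with its fold change. In each of the 6 subunits with a pair of probes, the downstream probe had the higher mean log2 fold change, by 0.23 in Grik2, 0.63 in Gria4, 0.72 in Gria2 and 1.43 in Gria3. In Grik1 and Grik3 the upstream probe was not well above background on the second CPEB2 IgG array, so the size of the difference is uncertain. It was 1.76 and 4.27 in the 2 experiments for Grik1 and 2.96 and 5.58 for Grik3, and with normexp background correction its mean was 1.88 and 3.55. All 6 downstream probes were called higher, against 1 of the 6 upstream probes and 12.7% of all probes tested. The share called among the downstream and the upstream probes of other genes was not counted. The difference between the probes of 1 subunit was tested with limma together with 7013 such pairs from all genes, of which 25.6% passed. Gria3 (adjusted p = 0.0306), Grik1 (adjusted p = 0.0467) and Grik3 (adjusted p = 0.0276) passed, and Gria2 (adjusted p = 0.120), Gria4 (adjusted p = 0.201) and Grik2 (adjusted p = 0.658) did not. Among probes well above background on all 4 arrays the Grik1 and Grik3 pairs could not be tested, and Gria3 was the only 1 of the 4 remaining pairs to pass. The Grik1 pair also missed the threshold when marked spots were kept (adjusted p = 0.0504). In Grik3 the probes were 5784 bases apart both in the transcript and in the genome, and in Gria3 they lay on the same annotated transcript. The other 4 pairs were annotated to different transcripts, so different transcripts and different regions cannot be told apart for them.

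The same direction prevailed across the array. Among 5153 genes with at least 2 tested probes a probe length or more apart, the most downstream probe had the higher log2 fold change in 72.9%, with a median difference of 0.54 and quartiles of -0.05 and 1.30. The 6 subunits had a median difference of 1.07, which 31.3% of these genes exceeded. Among the 4515 genes with such probes well above background on all 4 arrays the share was 74.5%, and the 4 subunits that remained had a median of 0.67 against 0.55. The downstream probe was the brighter in 5 of the 6 subunits, the exception being Grik2.

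GC content moved with some of these differences. It was 30.0% in the downstream and 55.0% in the upstream Grik3 probe, 35.0% and 43.3% in Grik1, 40.0% and 48.3% in Gria3, 36.7% and 45.0% in Grik2, 40.0% and 35.0% in Gria4, and 35.0% in both Gria2 probes. With centring within bins of GC content the downstream-minus-upstream difference was 1.10 in Gria3, 1.23 in Gria4, 0.72 in Gria2 and -0.15 in Grik2, where the direction turned. It stayed above 0 in Grik1 and Grik3, again against their dim upstream probes. Under that setting Gria3, Gria4 and Grik3 passed and Grik1 did not (adjusted p = 0.0522). Without CPEB2 IgG replicate 2 the Grik2 difference was -0.13 and 0 of the 6 pairs passed in limma, with 5 at an unadjusted p below 0.05. Without control IgG replicate 2 again 0 passed, with 3 at an unadjusted p below 0.05, and without control IgG replicate 1 only Grik3 passed.

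**Figure D4:**
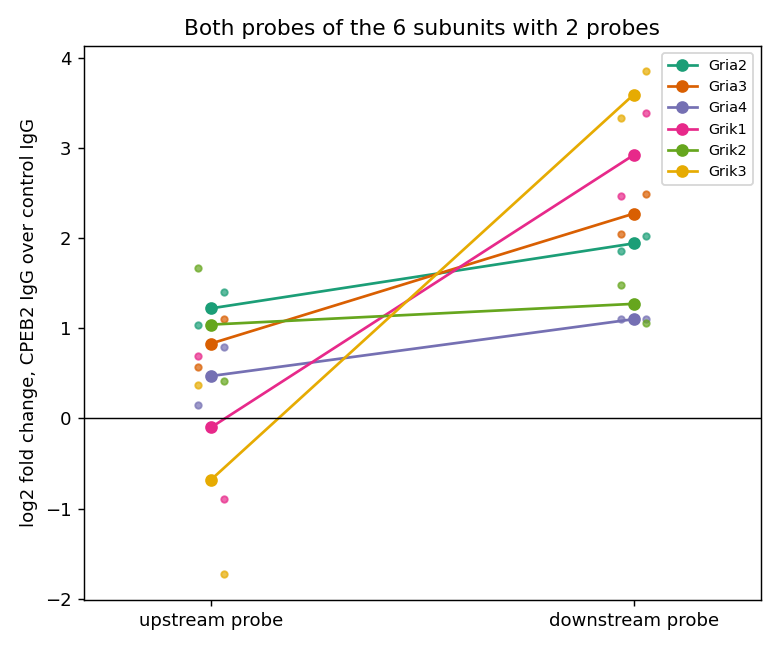
Log2 fold change (CPEB2 IgG over control IgG) of the upstream and the downstream probe of the 6 subunits with 2 probes; large points are means joined by a line for each subunit, and small points are the 2 experiments. All lines rise from left to right, by 0.23 in Grik2 to 1.43 in Gria3 among the 4 subunits with both probes well above background on all 4 arrays; the upstream points of Grik1 and Grik3 rest on dim probes.

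With the brightest probe standing for each subunit, the mean log2 fold changes ran from 3.59 in Grik3 through 2.92 in Grik1, 2.27 in Gria3, 1.94 in Gria2, 1.44 in Grik5, 1.10 in Gria4, 1.04 in Grik2 and 0.65 in Gria1 to 0.47 in Grik4. No neighbours in this order were shown to differ in limma, with adjusted p-values between 0.154 (Grik3 and Grik1) and 0.933 (Gria4 and Grik2). Of the 36 pairs of subunits, 15 differed, with p-values adjusted over these and the pairs of probes of all genes together. Grik3 exceeded every other subunit except Grik1, by between 1.32 (Gria3, 95% interval 0.62 to 2.03) and 3.12 (Grik4, 95% interval 2.35 to 3.88) on the log2 scale. Gria1 was below Gria2 by 1.29 and below Gria3 by 1.61 (95% intervals 0.55 to 2.03 and 0.91 to 2.31). Each comparison sets 1 probe against another, and the brightest Grik2 probe was its upstream one. Differences between subunits therefore cannot be told apart from differences in probe place or GC content. The upstream Gria3 probe had 0.83, and with centring within GC bins Gria1 had 0.18 and Grik4 1.00. Gria1 and Gria4 were not shown to differ, the interval of Gria1 minus Gria4 being -1.23 to 0.34. The high-affinity kainate subunits were also not shown to differ, with Grik5 above Grik4 by 0.96 (95% interval 0.26 to 1.67, adjusted p = 0.0642). Without CPEB2 IgG replicate 2, 0 of the 36 pairs passed, with 21 at an unadjusted p below 0.05, and without either control array 5 passed. The medians of the AMPA and kainate subunits at their brightest probes were 1.52 and 1.44.

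The study took transcripts with at least 1 cytoplasmic polyadenylation element in the 3′ untranslated region, a criterion not applied here. It also required a raw signal over 1000 and an enrichment of more than 1.5-fold. When any probe of a gene could pass both (the signal on at least 1 CPEB2 IgG array, the fold as the mean of the experiments), Gria1, Gria2, Gria3, Gria4, Grik3 and Grik5 passed, 6 of the 9 subunits against 13.9% of all genes. Grik1, with the second highest fold change, did not pass because its signals of 304 and 464 were under the signal threshold, and Grik2 likewise. Grik4 was bright enough but its mean fold change was 1.39. Gria1 passed these thresholds without passing limma, and it dropped out when each experiment had to exceed 1.5-fold. With signal and fold taken from experiment 1 alone 5 passed, against 12.4% of all genes, and from experiment 2 alone 6, against 14.8%. When every probe of a gene had to pass, 2 remained, the single-probe subunits Gria1 and Grik5, against 8.41% of all genes.

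Related receptor genes and partners were read at their brightest probes, for which 17.9% of all genes were higher and 16.3% lower. Of the 9 NMDA and delta receptor subunits tested, 1 was higher and 0 were lower in limma (1 lower at an unadjusted p below 0.05), and their median log2 fold change was -0.24, against -0.11 over all genes and 1.44 over the 9 AMPA and kainate subunits. The one that passed was Grin3a, which encodes the glycine-binding subunit GluN3A, with raw signals of 1247 and 1727 against 347 and 362 and a log2 fold change of 2.10 at this probe and 0.95 at its other probe. Grin1, the obligatory NMDA receptor subunit, had log2 fold changes of 0.13 and -0.65 in the 2 experiments, with -0.54 at its other probe. Grin2b, a subunit common in young and adult forebrain, had 0.34 and 0.80 at its brightest probe, whereas its other probe was higher with CPEB2 IgG and passed, with a mean of 1.15.

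Genes for AMPA receptor auxiliary and trafficking proteins went both ways. Of 34 listed, 31 were tested, 10 were higher and 6 lower, and their median was 0.76. The 2 highest were Porcn, a membrane-bound O-acyltransferase found in AMPA receptor complexes, with a log2 fold change of 2.82, and Nptx1, a pentraxin that clusters AMPA receptors, with 2.39. Nptx1 differed between experiments, with 1.55 and 3.22. The 2 lowest were Cpt1c, a carnitine palmitoyltransferase relative that associates with AMPA receptors, with -1.79, and Gripap1, which encodes the GRIP-associated protein GRASP1, with -1.61. Gripap1 had raw signals of 1697 and 2029 on the CPEB2 IgG arrays and of 7284 and 4746 on the control IgG arrays at its only probe, so the groups did not overlap and control IgG was the higher. The paper cites earlier work in which CPEB2 activated translation of this mRNA. Other parts of the Gripap1 transcript were not read, and the cause of its direction here was not tested.

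Of the 5 kainate receptor partners, Neto1 (log2 fold change 1.46) and Neto2 (1.21), the auxiliary subunits of kainate receptors, were higher with CPEB2 IgG, and Klhl17 (-1.61), an actin-binding protein that interacts with GluK2, was lower. The other probes of Neto1 and Neto2 had 0.43 and 0.92 and did not pass. Of the 3 RNA editing enzymes, 0 were higher in limma, also at an unadjusted p below 0.05, and 1, Adar, was lower, with a log2 fold change of -1.08 at its brightest probe and -0.24 at its other. Adarb1, which encodes ADAR2, the enzyme that edits Gria2 pre-mRNA at its Q/R site, had -0.25 (adjusted p = 0.561 from limma). Over the 4 lists together 21 genes passed, and this count fell to 10 without CPEB2 IgG replicate 2, 8 without control IgG replicate 1 and 6 without control IgG replicate 2.

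**Figure D5:**
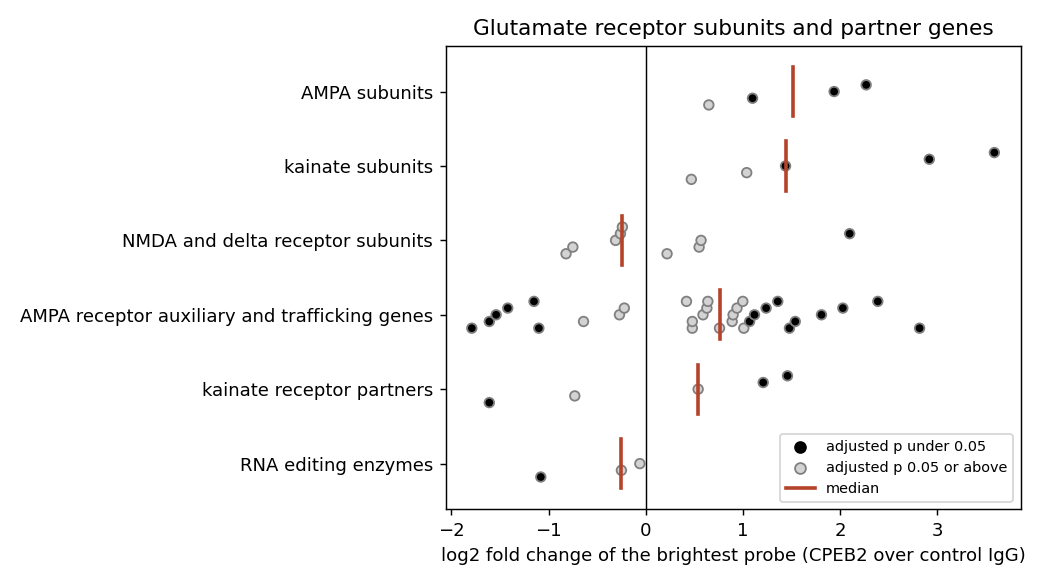
Log2 fold change of the brightest probe of each gene, CPEB2 IgG over control IgG, for the AMPA and kainate subunits and the 4 lists of related genes; black points passed the limma threshold, grey points did not, red bars are medians, and vertical scatter within a row carries no value. All 9 AMPA and kainate subunits lie above 0, whereas the NMDA and delta list has its median at -0.24.

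Cell type markers, read at their brightest probes, did not share one direction. The glutamatergic neuron markers Slc17a7, Camk2a, Neurod2 and Neurod6 had log2 fold changes of -0.03, 0.10, 0.41 and 1.00, and none of these passed in limma. The GABAergic neuron markers Gad1, Gad2 and Slc32a1 had -0.04, -0.58 and -0.97, and none of these passed. Astrocyte markers held Slc1a3 at 3.44 and Aldh1l1 at -3.77 (0.37 at its other probe), and of the 5, 1 was higher and 1 lower. Gfap did not pass at its brightest probe (-0.90), but both of its other probes (-1.73 and -1.71) passed as lower. Oligodendrocyte precursor markers held Pdgfra at 2.52 and Cspg4 at -0.34. At their brightest probes 0 of 5 oligodendrocyte and 0 of 3 endothelial markers passed (2 and 0 at an unadjusted p below 0.05), with medians of 0.25 and -0.11. Both other probes of Mobp (-1.20 and -1.13) and 1 of the 2 other probes of Mbp (range -1.70 to -0.98) did pass as lower. At their brightest probes, of 5 microglial markers 1 was higher and 2 were lower. Neurod1, the one tested gene of the cerebellar granule cell list and also a gene of other neurons, had a log2 fold change of 4.17. The part of cell types in the values of the subunits was not tested.

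Likeness to other genes was read from the 4 scaled log2 values of each brightest probe after centring on its own mean, as the root mean square difference over the 4 arrays among 17813 genes well above background on all 4. The nearest gene was Tmem38b to Grik3 (difference 0.040), Npm3 to Grik1 (0.080), Lin28b to Gria3 (0.023), Pitpnb to Gria2 (0.028), Bmp2 to Grik5 (0.013), Acvr2b to Gria4 (0.011), Gpr180 to Grik2 (0.080), Xylt2 to Gria1 (0.022) and Cdh8 to Grik4 (0.011). With 4 arrays, patterns differing by less than 0.1 were common for some subunits: 285 were within 0.1 of Grik4 and 224 of Gria4, but 10 of Grik1, 7 of Grik3 and 1 of Grik2.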

How the data were processed

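RNA co-precipitated by CPEB2 IgG or control IgG was amplified, labelled with Cy3 and hybridised by the authors to 4 one-colour Agilent SurePrint G3 Mouse GE 8x60K arrays. Per the file headers, the deposited intensities came from Agilent Feature Extraction 10.5.1.1, background subtracted and detrended, with no scaling between arrays. Depth has no counterpart on arrays, so their number limits the precision. Spots of control probes were left out, as were those that the software had flagged as non-uniform or outlying, 66 probes without a value on an array were dropped, repeated spots were averaged, and log2 intensities were centred on the 75th percentile of 55615 probes. Probes well above background on at least 2 arrays were tested with limma 3.58.1 in R 4.3.3 with the experiment as a block and Benjamini-Hochberg adjustment over all probes (threshold 0.05). The block leaves 1 residual degree of freedom per probe. The pairing comes from the divided lysate, and the deviations of same-numbered arrays correlated at 0.206. Differences between probes were tested in the same way on differences of log2 values. Raw signals in the text are means over a probe's spots, and fold changes are on the scaled values. No source says that the lysates came from separate animals, so p-values measure the spread between these samples.

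Members and lists were chosen with earlier results of these data known. All probes of the 9 subunits are named, with Cpeb2 and Gapdh as reference points; of each list of related genes the 2 highest and 2 lowest past the threshold with the same sign in both experiments; the genes nearest in pattern by the smallest difference; and markers, NMDA receptor subunits and RNA editing enzymes beyond these were chosen after their values were seen. Alternatives were other scalings, background correction, filters on dim probes, no block, an intensity trend, other ways to combine probes, other thresholds and leaving out arrays. The limma step was tested on simulated data. Some marker genes are not reported here. Symbols of all 9 subunits matched RefSeq gene records of GRCm38.p6, from which no coordinate was taken. Tables and plots used Python 3.11.15 with numpy 2.4.6, pandas 2.3.3 and matplotlib 3.10.9.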

Additional observations from a re-analysis of the deposited data

How the results depend on the processing

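The count of subunit probes higher with CPEB2 IgG was 8 and lay between 7 and 11 under the other scalings, background correction, marked spots kept, the stricter filter, no replicate block (8) and the intensity trend, between 4 and 8 with 1 array left out, and was 0 with no filter on dim probes, where limma called 0 of all 55615 probes; at an unadjusted p below 0.05 that setting had 8 subunit probes higher and 7020 and 9073 of all probes higher and lower. The downstream probes of Gria2, Gria3, Grik1 and Grik3 passed under each setting except that one, where their adjusted p was 0.0961. None of the 15 probes was lower under any setting. With no filter, 0 probe pairs of one subunit (3 at an unadjusted p below 0.05), 0 subunit pairs (18 unadjusted) and 0 listed genes (27 unadjusted) passed in limma. With the filter at all 4 arrays 1 probe pair (Gria3) passed, since the upstream probes of Grik1 and Grik3 were left out. With 1 array left out, the probe pairs that passed numbered 0 to 3 (against 3), the subunit pairs 0 to 18 (against 15) and the listed genes 6 to 20 (against 21); an arm of 1 array is assumed to vary like the other. Requiring every probe to pass gave 2 subunits past the study's thresholds (8.41% of all genes), against 6 (13.9%). The other alternatives gave 4 to 7, with between 10.5% and 17.0% of all genes.

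Without the replicate block 8 subunit probes, 3 probe pairs, 16 subunit pairs and 23 listed genes passed, and the calls of the 15 probes were the same ones. The dim upstream Grik1 probe turned from -0.10 to 0.16 (quantile normalization), 0.13 (median centring), 0.026 (spike-in probes), 0.14 (GC bins), 0.10 (normexp), 0.48 (without CPEB2 IgG replicate 2) and 0.12 (without control IgG replicate 2), with no adjusted p under 0.05, and was -0.89 without replicate 1 and 0.69 without replicate 2 of both groups; the cause was not tested beyond the shift that each scaling gives all probes. Relative to a median of -0.20 over all probes, that median was -0.04 with quantile normalization, 0.02 with median centring, -0.31 with the percentile over probes well above background on all 4 arrays, -0.08 with spike-in probes, -0.02 with GC bins and -0.07 with normexp. Median centring moved the share of calls that were higher from 46.2% to 57.3%. Dim signal limits the Grik1 and Grik3 upstream probes, which had signals of at most 54.1.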
